A study of Mus musculus with 96 samples.

Results

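Voltage-gated calcium channels were described through 10 subunit genes in single neurons of the mouse preoptic area, out of 24054 genes in the deposited count table. The members were taken by name, and earlier results of these data were known when they were chosen. They are the pore-forming subunits Cacna1a, Cacna1b, Cacna1c, Cacna1d, Cacna1e and Cacna1g, the β subunits Cacnb3 and Cacnb4, and the α2δ subunits Cacna2d1 and Cacna2d2. All 10 had counts in the table. The preoptic area is the part of the hypothalamus in which neurons that sense local temperature have long been studied. Each of 96 neurons was recorded by whole-cell patch clamp in a brain slice, picked with a glass pipette, and sequenced from its total RNA by Smart-seq2, a method that amplifies full-length transcripts of one cell.

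The mice were of strain C57BL/6N and 2 to 3 months old. The labels name no transgene, deletion or agent in any class. The labels class 24 cells as temperature-insensitive, 21 as warm-sensitive, 5 as cold-sensitive, 18 as silent and insensitive, and 10 as silent and sensitive. The class of the other 18 cells is labelled unknown, and they entered no comparison. No label says which animal a cell came from, so each class was treated as 1 sample. Differences between classes therefore carry no test, and the spread given beside them is between cells that may share an animal.

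A voltage-gated calcium channel opens when the membrane is depolarised and lets calcium into the cell. The pore-forming subunit sets the type of current. P/Q-type (Cacna1a), N-type (Cacna1b) and R-type (Cacna1e) channels open at strong depolarisation and drive transmitter release at nerve terminals, L-type channels (Cacna1c, Cacna1d) couple activity to gene expression and pacemaking, and T-type channels (Cacna1g) open near the resting potential and support burst firing. β subunits bind the pore from inside the cell and help it reach the membrane, and α2δ subunits sit on the outer face and raise the number of working channels. Cacna2d1 and Cacna2d2 encode the binding proteins of gabapentin.

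Libraries held 465167 to 3660726 counts (median 1279600). Of all counts, 53.17% belonged to Rn45s, the precursor of ribosomal RNA. The median cell of the insensitive class had 45.4% Rn45s and that of the warm-sensitive class 67.7%, with the cold-sensitive (56.1%), silent insensitive (54.97%) and silent sensitive class (61.8%) between them. More than 75% of the counts were Rn45s in 8 of 21 warm-sensitive, 4 of 18 silent insensitive, 2 of 10 silent sensitive and 1 of 18 unknown cells, and in none of the insensitive or cold-sensitive cells. Snap25, a synaptic vesicle fusion protein, reached 10 CPM (counts per 1000000 counts of the cell) in 92 of 96 cells, the most of 12 pan-neuronal markers. Any of the 12 did so in all 96 cells, but Rbfox3 only in 41 and Elavl3, the sparsest, in 32. Microglial markers were present as well, with a median summed level of 445 CPM in insensitive and 3203 CPM in cold-sensitive cells, while the summed level of 4 endothelial markers was at or below 21.05 CPM in every cell. Any microglial marker reached 10 CPM in 72 of 96 cells, any of 7 oligodendrocyte markers in 75 and any of 8 astrocyte markers in 85.

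The subunits were found in a minority of cells, and in those at moderate levels. A gene was called detected at 10 CPM or more, with Rn45s in the total. By this measure Cacna1e was detected in 34 of 96 cells (35.4%, exact 95% interval 25.9 to 45.8%), Cacna2d1 in 33 and Cacnb4 in 30. Cacna1b followed with 21 cells, Cacna1a with 17, Cacnb3 with 15, Cacna1g with 14, Cacna1d with 10, and Cacna1c and Cacna2d2 with 8 each. Neighbours in this order had overlapping intervals. The median level over all 96 cells was 1.32 CPM for Cacna1e, 0.75 CPM for Cacna2d1 and 0 for each of the other 8 genes. Many cells held a few reads only: 73 cells had at least 1 count of Cacna1e and 58 at least 1 count of Cacna2d1.

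Longer transcripts give more reads in this method, so levels of different genes were compared per kilobase of exon. On that scale Cacna2d1 had the highest mean over the 96 cells, 6.57 CPM per kb, ahead of Cacnb3 with 5.87, Cacna1b with 4.22, Cacnb4 with 3.85 and Cacna1e with 3.68 CPM per kb. Cacna1g (1.68), Cacna1d (1.27), Cacna1a (0.85), Cacna2d2 (0.65) and Cacna1c (0.20 CPM per kb) were lower. Single cells weigh heavily on such means. With its highest cell left out, the mean of Cacna1b was 2.13 CPM per kb, that of Cacna1d 0.69 and that of Cacna1c 0.11 CPM per kb, and Cacna2d1 stayed first with 5.40.

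**Figure D1:**
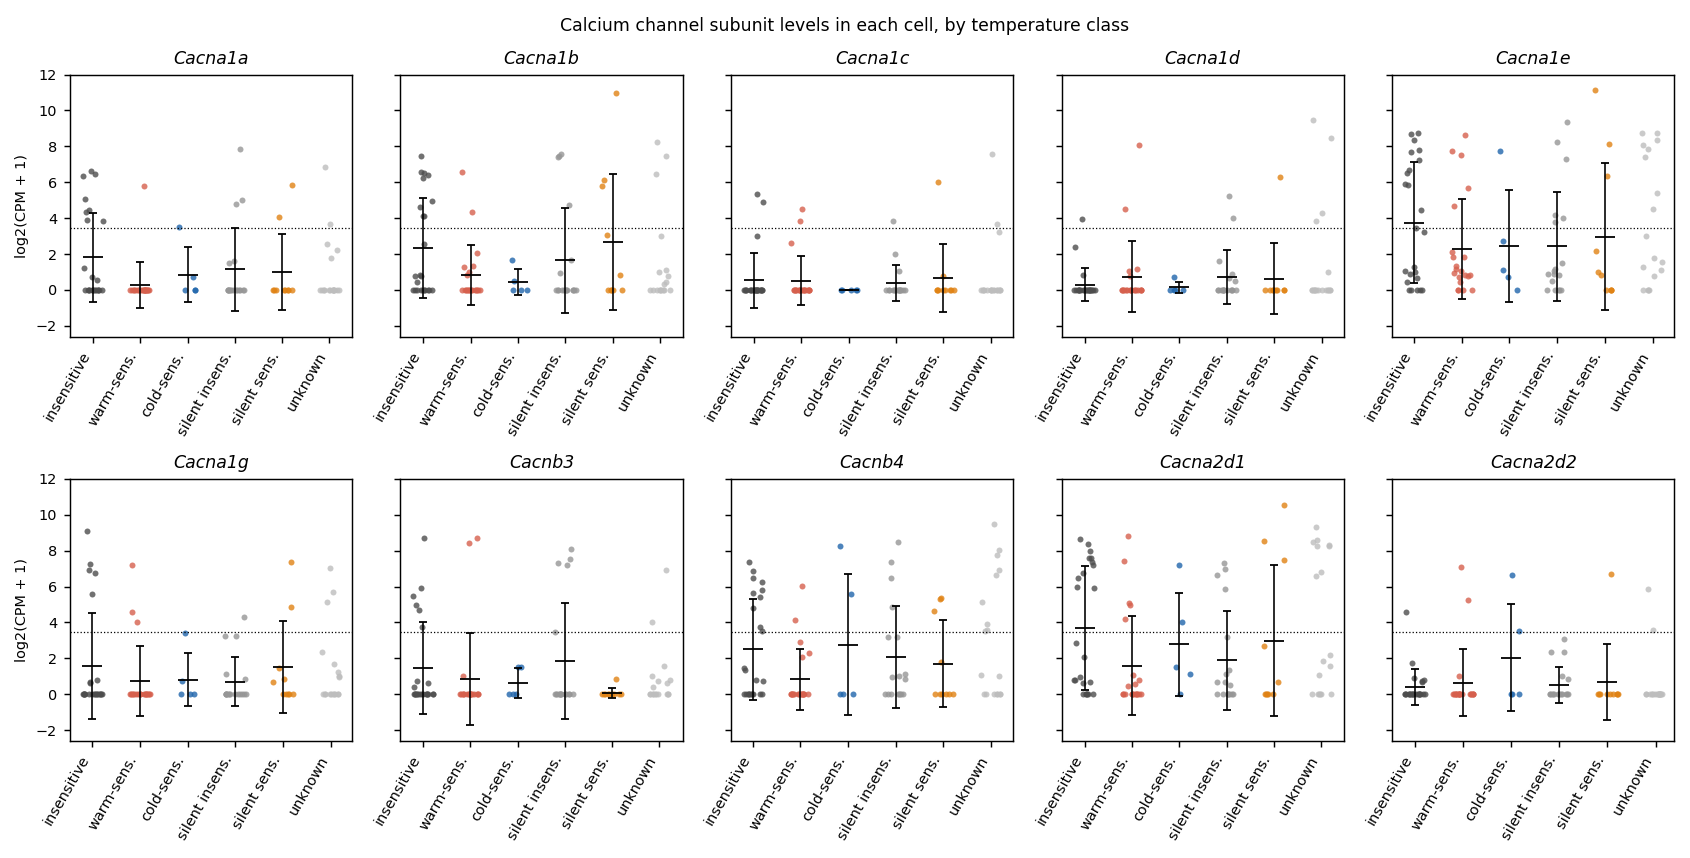
Level of each calcium channel subunit in every cell, as log2(CPM + 1) on the vertical axis, by temperature class (24 insensitive, 21 warm-sensitive, 5 cold-sensitive, 18 silent insensitive, 10 silent sensitive and 18 unknown cells). Points are cells, bars are the mean and SD over cells of the labelled classes, and the dotted line marks 10 CPM. In every class most points of most genes lie on or near 0, with a few cells well above the dotted line.

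Cacna1e, the pore of R-type current, lies on mouse chromosome 1 (mm10, chr1:154390731-154884501, minus strand, with 52 exon blocks). In insensitive cells its level ran from 0 over a median of 9.20 to 420 CPM, and 11 of 24 cells reached 10 CPM (45.8%, 25.6 to 67.2%). Warm-sensitive cells ranged from 0 to 388 CPM with a median of 1.05, and 5 of 21 were detected (23.8%, 8.22 to 47.2%). The 2 ranges overlap almost in full, and the shares of cells with any count, 19 of 24 and 17 of 21, were close. Among the cold-sensitive cells the levels were 0.64, 5.73, 215, 1.16 and 0 CPM, so that 1 cell held nearly all reads. Silent insensitive cells ranged up to 658 CPM (6 of 18 detected) and silent sensitive cells up to 2278 CPM (3 of 10 detected).

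Cacna1b, the N-type pore (chr2:24603887-24763152, minus strand, with 50 exon blocks), was detected in 9 of 24 insensitive cells (37.5%, 18.8 to 59.4%), where it ranged from 0 over a median of 0.70 to 174 CPM. Only 2 of 21 warm-sensitive cells reached 10 CPM (9.52%, 1.17 to 30.4%), with a highest level of 93.0 CPM. None of the 5 cold-sensitive cells did, their levels being 0, 0.41, 2.19, 0 and 0 CPM, and with 5 cells a share of up to 52.2% remains within the interval. It was detected in 4 of 18 silent insensitive cells, at 25.1 to 192 CPM, and in 3 of 10 silent sensitive cells. One of those, silent sensitive cell 8, held 2021 CPM.

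Cacna1a, the P/Q-type pore (chr8:84388440-84640246, plus strand, with 51 exon blocks), came to 10 CPM or more in 8 of 24 insensitive cells (33.3%, 15.6 to 55.3%), up to 96.9 CPM, and in 1 of 21 warm-sensitive cells (4.76%, 0.12 to 23.8%), which held 54.0 CPM. That warm-sensitive cell was also the only one of its class with any count of the gene. Cold-sensitive cells held 0.64, 0, 10.6, 0 and 0 CPM. In silent insensitive cells 3 of 18 were detected and 82.1% of the class's counts lay in cell 13, at 230 CPM.

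L-type pores were rare. Cacna1c, the main L-type pore of brain and heart (chr6:118587240-119196418, minus strand, with 56 exon blocks), was detected in 2 of 24 insensitive, 2 of 21 warm-sensitive, 1 of 18 silent insensitive and 1 of 10 silent sensitive cells, and had no count in any of the 5 cold-sensitive cells. Cacna1d, whose channels open at less depolarised potentials and support pacemaking (chr14:30039939-30491455, minus strand, with 52 exon blocks), was detected in 1 of 24 insensitive cells, at 14.3 CPM, and in 2 of 21 warm-sensitive cells, at 21.5 and 271 CPM. Summed over cells, Cacna1d made up 0.75 CPM (0.50 to 1.07, exact Poisson 95% interval) in the insensitive and 12.3 CPM (11.02 to 13.7) in the warm-sensitive class. Warm-sensitive cell 18 alone held 92.8% of the latter, and these intervals cover counting error only, without the spread between cells. Either L-type pore was present at 10 CPM in 3 of 24 insensitive (12.5%, 2.66 to 32.4%) and 3 of 21 warm-sensitive cells (14.3%, 3.05 to 36.3%).

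The T-type pore Cacna1g (chr11:94408391-94474198, minus strand, with 38 exon blocks) was detected in 5 of 24 insensitive cells, where the highest held 548 CPM, 3 of 21 warm-sensitive, 1 of 18 silent insensitive and 2 of 10 silent sensitive cells. The cold-sensitive cells held 0.64, 0, 9.49, 0 and 0 CPM. Its intervals overlap between all 5 classes, from 7.13 to 42.2% in the insensitive to 0.14 to 27.3% in the silent insensitive class.

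The β subunit Cacnb4 (chr2:52428320-52676831, minus strand, with 19 exon blocks), whose loss causes the epilepsy and ataxia of lethargic mice, was detected in 10 of 24 insensitive cells (41.7%, 22.1 to 63.4%) and in 2 of 21 warm-sensitive cells (9.52%, 1.17 to 30.4%). Its highest levels in these classes were 162 and 64.2 CPM. Cold-sensitive cells held 0, 307, 47.1, 0 and 0 CPM, so 1 cell lay above every insensitive cell, 1 within their range, and the other 3 had no count. Silent insensitive cells reached 356 CPM (4 of 18) and silent sensitive cells 40.7 CPM (3 of 10).

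Cacnb3, a β subunit often found with N-type and L-type pores (chr15:98630840-98644529, plus strand, with 17 exon blocks), was detected in 6 of 24 insensitive and 2 of 21 warm-sensitive cells. The summed counts ran the other way, 18.2 CPM (16.9 to 19.5) in the insensitive and 47.7 CPM (45.2 to 50.4) in the warm-sensitive class. These Poisson intervals cover counting error only, without the spread between cells. The warm-sensitive sum came from cell 3 with 423 CPM and cell 18 with 338 CPM, and 60% of the insensitive sum from cell 8 with 415 CPM. Direction for this gene thus depends on whether cells or reads are counted. In the silent classes 5 of 18 insensitive cells were detected (27.8%, 9.69 to 53.5%), up to 267 CPM, against 0 of 10 sensitive cells, in which the highest level was 0.82 CPM. With 10 cells and no detection, a share of up to 30.8% remains within the interval, so the 2 classes overlap.

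The α2δ subunit Cacna2d1 (chr5:15934691-16374511, plus strand, with 42 exon blocks) ranged from 0 over a median of 4.76 to 394 CPM in insensitive cells, of which 11 of 24 were detected (45.8%, 25.6 to 67.2%). In warm-sensitive cells the median was 0 and the highest level 454 CPM, and 5 of 21 were detected (23.8%, 8.22 to 47.2%). Any count was present in 18 of 24 insensitive and 9 of 21 warm-sensitive cells. Cold-sensitive cells held 15.3, 0, 144, 1.16 and 1.92 CPM, silent insensitive cells up to 156 CPM (4 of 18), and silent sensitive cells up to 1465 CPM (3 of 10).

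Cacna2d2 (chr9:107399612-107529343, plus strand, with 40 exon blocks), which is best known from cerebellar Purkinje cells and inhibitory neurons, was detected in 1 of 24 insensitive and 2 of 21 warm-sensitive cells, up to 134 CPM. In the cold-sensitive class 2 of 5 cells were detected, at 10.6 and 98.4 CPM, and the other 3 had no count. None of the 18 silent insensitive cells reached 10 CPM, with a highest level of 7.55 CPM and an upper limit of 18.5% on the share.

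**Figure D2:**
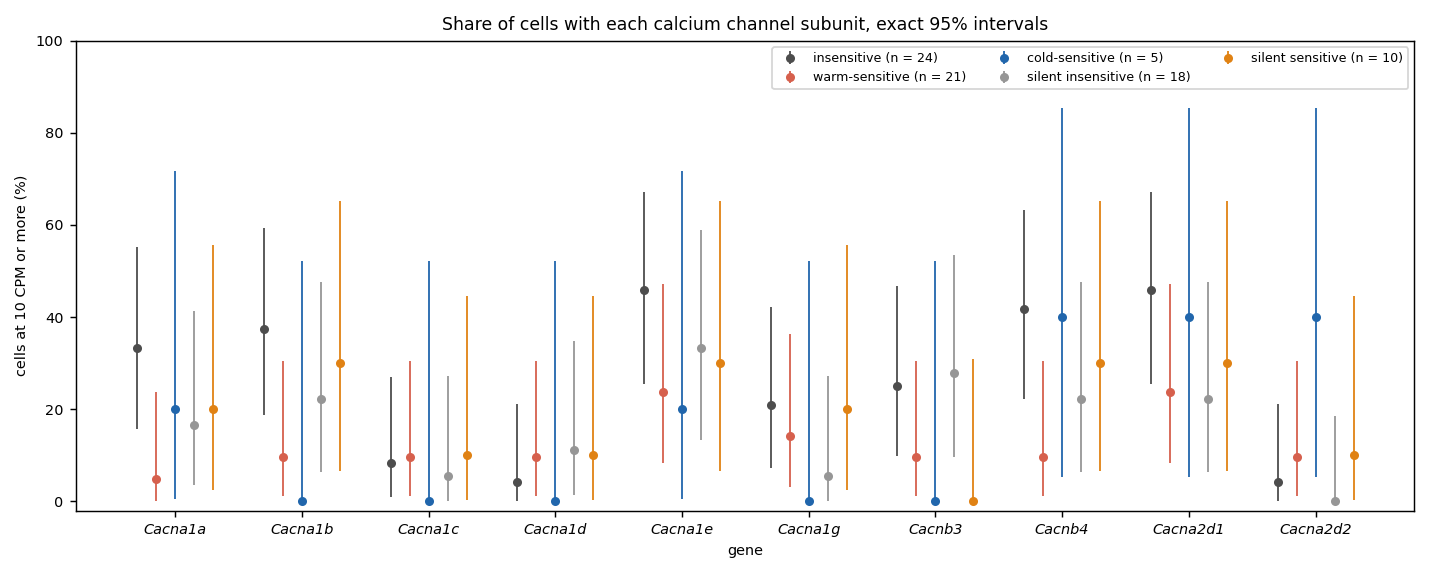
Share of cells in percent at 10 CPM or more of each calcium channel subunit, by temperature class, with exact Clopper-Pearson 95% intervals that cover counting error only. For Cacna1a, Cacna1b, Cacna1e, Cacna1g, Cacnb3, Cacnb4 and Cacna2d1 the insensitive class lies above the warm-sensitive class, with overlapping intervals. Of all genes, 2429 reached 10 CPM in the median insensitive and 1348 in the median warm-sensitive cell. The intervals of the 5 cold-sensitive cells span most of the axis.

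A channel needs a pore, and 57 of 96 cells had at least 1 of the 6 pore-forming subunits at 10 CPM. The share was 20 of 24 insensitive cells (83.3%, 62.6 to 95.3%) and 8 of 21 warm-sensitive cells (38.1%, 18.1 to 61.6%). These intervals do not overlap, but they cover counting error only, over cells that may share an animal. Detection of all genes was lower as well: 2429 genes reached 10 CPM in the median insensitive cell and 1348 in the median warm-sensitive cell. The pore share was 1 of 5 cold-sensitive (20%, 0.51 to 71.6%), 9 of 18 silent insensitive (50%, 26.02 to 73.98%) and 7 of 10 silent sensitive cells (70%, 34.8 to 93.3%). The measure moved with the Rn45s share: with Rn45s left out of the total, 87.5% of insensitive and 52.4% of warm-sensitive cells were counted, and the intervals overlapped (67.6 to 97.3% and 29.8 to 74.3%). With cells above 75% Rn45s left out, 7 of 13 warm-sensitive cells had a pore (53.8%). At a single count, the shares were 100% and 90.5%.

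Pores of the P/Q, N or R type made up most of these detections, in 18 of 24 insensitive (75%, 53.3 to 90.2%) and 7 of 21 warm-sensitive cells (33.3%, 14.6 to 57.0%). Cacna1e was the pore with the highest CPM in 26 of the 57 cells, Cacna1b in 11, Cacna1g in 9, Cacna1a and Cacna1d in 5 each and Cacna1c in 1. Per kilobase Cacna1e led in 24 and Cacna1b in 14. Among the 20 insensitive cells with a pore, the leading gene by CPM was Cacna1e in 7, Cacna1b in 5, and Cacna1a and Cacna1g in 4 each.

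A β subunit was detected in 13 of 24 insensitive (54.2%, 32.8 to 74.4%), 4 of 21 warm-sensitive (19.05%, 5.45 to 41.9%), 2 of 5 cold-sensitive, 8 of 18 silent insensitive and 3 of 10 silent sensitive cells. An α2δ subunit was detected in 12 of 24, 6 of 21, 4 of 5, 4 of 18 and 3 of 10 cells in the same order. All 3 kinds together were present in 18 of 96 cells, a pore alone in 19, and a β or α2δ subunit without a pore in 17. Cacna1e and Cacna2d1 were both detected in 16 cells, 47.1% of the Cacna1e cells and 48.5% of the Cacna2d1 cells. Of the 21 cells with Cacna1b, 11 also had Cacna1e (52.4%, and 32.4% of the Cacna1e cells).

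**Figure D3:**
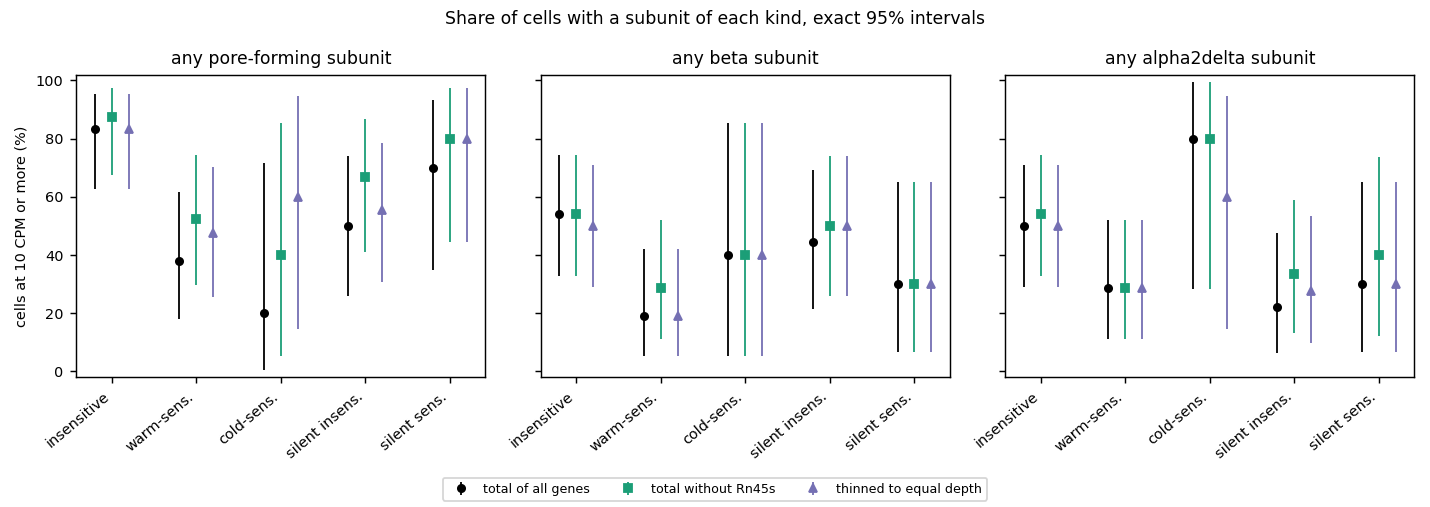
Share of cells in percent with at least 1 pore-forming, β or α2δ subunit at 10 CPM, by class, computed over all counts (circles), over totals without Rn45s (squares) and after thinning each cell to 100000 counts (triangles), with exact 95% intervals. The pore-forming share of warm-sensitive cells moved from 38.1% to 52.4% without Rn45s in the total and to 47.6% after thinning, a depth at which 10 CPM is 1 count.

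An insensitive cell had 2.67 ± 1.43 members at 10 CPM (SD over 24 cells) and a warm-sensitive cell 1.24 ± 1.58 (SD over 21). The mean was 1.60 ± 1.52 over the 5 cold-sensitive, 1.67 ± 1.64 over the 18 silent insensitive and 1.90 ± 1.66 over the 10 silent sensitive cells. The first 2 means lay 1 SD apart or less, and the others closer. No member was detected in 1 insensitive, 9 warm-sensitive, 1 cold-sensitive, 6 silent insensitive, 2 silent sensitive and 3 unknown cells. Over the 96 cells the count of members followed the number of genes with a count (Spearman rho 0.59) and ran against the Rn45s share (rho -0.44), while its relation to total counts was weaker (rho 0.18). Each point is 1 library, and both quantities come from the same library. Reads were found for 4022 genes in the median insensitive cell and for 3244 in the median warm-sensitive cell.

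**Figure D4:**
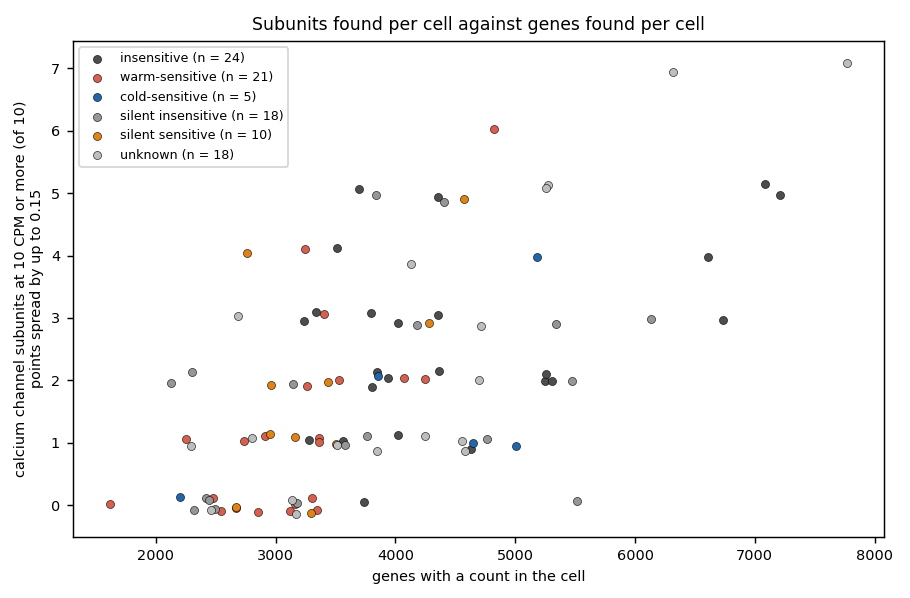
Number of the 10 subunits at 10 CPM or more in each cell, against the number of genes with a count in that cell, coloured by class (points spread vertically by up to 0.15 for display). Cells with more genes tend to have more subunits, with rho 0.59 over 96 cells.

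The members did not follow each other closely. Over the 45 pairs, rho of log2(CPM + 1) across the 96 cells ran from -0.15 to 0.33 with a median of 0.16, and 5 pairs were negative. The 3 members detected in at least 25% of the cells were each compared with all 3025 genes that met that limit, and the genes most like them are given with rho over the 96 cells. Cacna1e was most like Sptbn1, a spectrin of the membrane skeleton (0.51), Iqsec1 (0.48) and Atp6ap1, a part of the vesicular proton pump (0.47). Cacnb4 was most like Sumo3 (0.50), Mrpl33 (0.47) and Vps28 (0.45), and Cacna2d1 most like Camk2g, a calcium and calmodulin dependent kinase (0.52), Pam (0.46) and Wasl (0.44). The order depended on the cells and the total used. Without the cells above 75% Rn45s, Cacnb4 was most like Kat7 (0.51) and then Sumo3 (0.49), and Epha4 was second for Cacna2d1 there (0.46) and with Rn45s left out of the total (0.45), while Sptbn1 and Camk2g kept the first place for Cacna1e and Cacna2d1 in both. Each of these values rests on sparse counts of libraries whose depth differs, and the median gene had rho 0.12 with Cacna1e, 0.14 with Cacnb4 and 0.16 with Cacna2d1. Against the transmitter genes Slc17a6, Gad1 and Gad2, the 30 values of rho ran from -0.13 to 0.36 with a median of 0.07. The highest was between Cacna2d1 and Slc17a6, the vesicular glutamate transporter, and for Cacna2d1 rho was as far from 0 with the number of genes with a count (0.39) and with the Rn45s share (-0.39).

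Warm-sensitive cells had lower mean levels of most members than insensitive cells, and so did most genes. The difference of the mean log2(CPM + 1), warm-sensitive minus insensitive, was -2.10 for Cacna2d1 (1.59 against 3.69, SD between cells 3.15), -1.68 for Cacnb4 (0.83 against 2.51, SD 2.35), -1.54 for Cacna1a (0.28 against 1.81, SD 2.02), -1.52 for Cacna1b (SD 2.33) and -1.46 for Cacna1e (SD 3.10). These 5 were lower by at least 1 and met the limit of 10 CPM in 25% of either class. The limit was met by 6 members, all through the insensitive class. Among all 4601 genes that met the limit, 67.6% were lower by at least 1 and 0.522% higher, and no member was higher by that much. Over the 6 members that met the limit the median was -1.53, beside -1.36 over all such genes. The median over all 10 members, those below the limit included, was -1.14. Relative to the median gene, at -1.36, no member that met the limit was lower or higher by 1, against 13% and 10% of all genes that met it. Below the limit, Cacna1d lay 1.80, Cacna2d2 1.61 and Cacna1c 1.34 above the median gene. These 3 were undetected in most cells, and that median covers only genes that met the limit. Over all 14785 genes with a count in these cells the median was -0.34. Cacna1d (0.44), Cacna2d2 (0.24) and Cacna1c (-0.03) did not meet the limit, nor did Cacna1g (-0.82), and Cacnb3, which did, differed by -0.60.

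Every one of these 10 differences was smaller than the SD between cells. Pan-neuronal markers moved the same way, 10 of 12 being lower by at least 1, beside 67.6% of all genes, and their summed level had a median of 2069 CPM in warm-sensitive (757 to 8399) and 4301 CPM in insensitive cells (1039 to 10098). Without the cells above 75% Rn45s, 4 members were lower by at least 1, and so were most genes that met the limit, with a median of -1.12. The median of all 10 members, those below the limit included, was then -0.53. The part of RNA quality in the members' differences was not tested further.

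**Figure D5:**
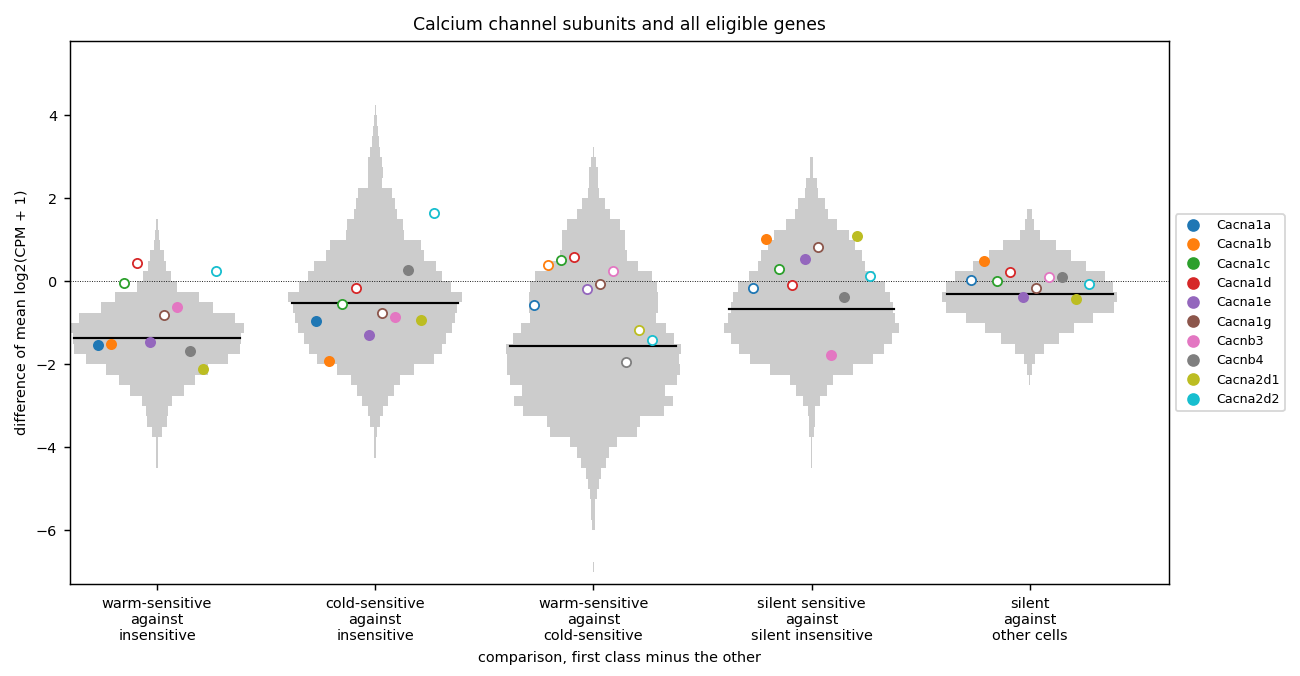
Difference of mean log2(CPM + 1), first class minus the other, for the 10 subunits (circles, filled where the gene met the limit of 10 CPM in 25% of either class) over the distribution of all genes that met it (grey, width scaled to the fullest bin of 0.25; black line, median). In the warm-sensitive against insensitive comparison the median of all genes lies at -1.36 and the filled circles lie around it.

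Cold-sensitive cells, of which there were 5, also had lower means for most members. The difference of the mean log2(CPM + 1), cold-sensitive minus insensitive, was -1.91 for Cacna1b (0.43 against 2.35, SD between cells 2.58) and -1.28 for Cacna1e (SD 3.33), the 2 members lower by at least 1. No member that met the limit was higher by that much, but Cacna2d2, which did not meet it, was. Of all 4644 genes that met the limit, 35.4% were lower and 13.9% higher by at least 1. Over the 6 members that met the limit, all through the insensitive class, the median was -0.94, beside -0.52 over all genes that met it. The median over all 10 members was -0.80. Relative to the median gene, only Cacna1b of the members that met the limit was lower by 1 and none higher. Of all genes that met it, 21.2% were lower and 22.8% higher. Cacna2d2, below the limit, lay 2.16 above the median gene, which covers only genes that met the limit. Over all 14107 genes with a count in these cells the median was -0.21. Cacna2d2 was the only member in any of the 5 comparisons whose difference, 1.64, exceeded the SD between cells (1.47), and it did not meet the limit of 3 cells. It rested on cold-sensitive cells 2 and 5, and without cell 5 the difference was 0.49. Cacnb4 differed by 0.27 with cold-sensitive cell 2 and by -1.11 without it, and Cacna1e by -2.603 without cell 3. Leaving out cold-sensitive cell 4 left 1 member lower by 1 or more, and leaving out cold-sensitive cell 3, or insensitive cell 4, 5, 7, 15, 19, 20 or 24, raised the number to 4. In this comparison all 10 microglial markers were higher by at least 1, with summed levels of 10.4 to 12053 CPM in cold-sensitive and 3.49 to 17093 CPM in insensitive cells. Their part in the members' values was not tested.

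Between warm-sensitive and cold-sensitive cells no member met the limit, so none could be counted, while 62.6% of the 2199 genes that did were lower and 7.37% higher in warm-sensitive cells. The median over the 10 members, all below the limit, was -0.12. It was -1.56 over the genes that met the limit and -0.10 over all 13020 genes with a count in these cells. Relative to the median of the genes that met the limit, 26.2% of those genes were lower and 29.2% higher by 1. The values for members that stood farthest apart were -1.94 for Cacnb4, -1.40 for Cacna2d2 and -1.18 for Cacna2d1, with SDs between cells of 2.22, 2.10 and 2.77. With any 1 of 16 warm-sensitive cells left out (1 to 4, 6, 7, 10, 11, 13 or 15 to 21), 1 member met the limit and was lower by 1 or more, since 5 of the 20 cells left is 25%. This comparison shares its cells with the preceding pair.

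Among cells labelled silent, 2 members were higher in the sensitive class by at least 1, against 10.4% of all 3459 genes that met the limit. Cacna2d1 differed by 1.09 (2.99 against 1.90, SD between cells 3.32) and Cacna1b by 1.03 (2.68 against 1.66, SD 3.25). Cacnb3 was lower, by -1.78 (0.09 against 1.87, SD 2.61), where 38.7% of all genes were lower by at least 1. Each met the limit only through the class in which it was higher. Cacna2d1 and Cacna1b were each detected in 3 of 10 sensitive and 4 of 18 insensitive cells, and Cacnb3 in 0 of 10 and 5 of 18. Over the 5 members that met the limit the median was 0.54, beside -0.65 over all genes that met it. Over all 10 members the median was 0.21, and 9 of 10 members lay above the median of the genes that met the limit. Those 10 include members below the limit, which were undetected in most cells. Over all 13459 genes with a count in these cells the median was -0.21. Relative to the median of the genes that met the limit, 3 of the members that met it were higher and 1 lower by at least 1. Of all genes that met the limit, 23% were higher and 18% lower. Each difference was smaller than the SD between cells.

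The higher values rest on silent sensitive cell 8. In this cell Cacna1e had 2278 CPM, Cacna1b 2021 CPM and Cacna2d1 1465 CPM, and the members summed to 5781 CPM, where the median cell of its class had 157 CPM. It held 92.3% of the Cacna1b, 80.1% of the Cacna1e and 69.8% of the Cacna2d1 counts of the class. The cell had 2758 genes with a count and 37.8% Rn45s, and neither β subunit nor an L-type or T-type pore had a count. Without it the differences were 0.10 for Cacna1b, 0.25 for Cacna2d1 and -0.37 for Cacna1e, and no member was higher by 1. Silent sensitive cell 3 held the other high values, with 371 CPM of Cacna2d1, 103 CPM of Cacna2d2, 77.9 CPM of Cacna1d and 63.5 CPM of Cacna1c.

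The counts of members past 1 in this comparison also moved with other single cells. Without silent insensitive cell 10, for example, Cacna1b differed by 0.93 and Cacna2d1 by 0.97. The number of members higher by 1 was 1 or 0 without silent sensitive cell 2, 3, 4 or 7, or without silent insensitive cell 3 to 16 or 18, and the number lower was 0 without silent insensitive cell 3, 4, 7, 12 or 13. The Cacnb3 difference itself stayed between -1.89 and -1.41 with any 1 cell left out.

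Silent cells together and the other labelled cells together differed little in the members. None of the 4 that met the limit was higher or lower by 1, against 2.73% and 15.3% of all 3481 genes, nor relative to the median gene, where these shares were 7.9% and 7.56%. The median was -0.13 over the 4 members that met the limit, 0.02 over all 10 members and -0.29 over all genes that met the limit. Differences of the members ran from -0.43 for Cacna2d1 to 0.50 for Cacna1b, each below the SD between cells. Without silent sensitive cell 8 the Cacna1b difference was 0.17.

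None of the remaining 16 subunit genes of this family was detected in as many cells as Cacna1b (21 of 96), but several were detected as often as the sparser members. Of them Cacng2, an AMPA receptor auxiliary protein named for its likeness to calcium channel γ subunits, was detected in 20 of 96 cells, Cacng5 in 17, and Cacnb2 and Cacna2d3 in 15 each. The T-type pores Cacna1h and Cacna1i were detected in 6 cells each. Cacng1 and Cacng6 had no count in any cell. Of those that met the limit of 10 CPM in 25% of either class, Cacng5 in cold-sensitive against insensitive cells was the 1 gene and comparison with a difference of at least 1, at -2.15, with 0 of 5 and 7 of 24 cells detected. Cacnb1, Cacng2, Cacng3 and Cacng5 also differed by more than 1 in some comparisons in which they did not meet the limit, the farthest being Cacnb1 between warm-sensitive and cold-sensitive cells (-2.15, with 1 of 21 and 2 of 5 cells detected). These 4 genes were chosen for mention after their values were seen.

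Among 18 partners and regulators, which include release machinery, calmodulin and small GTPases that restrain the channel, 9 of the 12 that met the limit were lower in warm-sensitive than in insensitive cells by at least 1 and none higher, beside 67.6% and 0.522% of all genes that met it. The farthest were Calm3, a calmodulin gene (-1.87), Rrad, a GTPase that inhibits L-type current (-1.85), and Stx1a, a syntaxin that binds N-type and P/Q-type pores (-1.69). The median over the 12 was -1.30, beside -1.36 over all genes that met the limit, and the median over all 18 was -1.04. In cold-sensitive against insensitive cells 4 of 12 were lower, beside 35.4% of all genes, led by Syt1, the calcium sensor of release (-1.62), Ncs1 (-1.45) and Stx1a (-1.41). In warm-sensitive against cold-sensitive cells Syt1 was higher (1.75) and 4 of the 6 that met the limit were lower, beside 7.37% and 62.6% of all genes, led by Snap25 (-1.92), Calm2 (-1.21) and Calm3 (-1.06). In silent sensitive against silent insensitive cells 4 of 10 were lower, beside 38.7% of all genes, led by Snap25 (-1.51), Rem2 (-1.44) and Ncs1 (-1.30). None of the 10 that met the limit passed a difference of 1 between silent and other cells.

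Of 5 calcium-activated potassium channel genes, which turn calcium entry into hyperpolarisation, Kcnn3 met the limit and was lower by at least 1 in cold-sensitive than in insensitive cells (-1.82, 0 of 5 and 6 of 24 cells detected), where 35.4% of all genes that met the limit were. No other gene that met the limit passed 1 in the 5 comparisons. Below the limit, and named after their values were seen, Kcnma1 differed by 1.65 in cold-sensitive against insensitive cells (2 of 5 and 1 of 24 detected) and Kcnn3 by 1.05 in warm-sensitive against cold-sensitive cells (3 of 21 and 0 of 5). Of 14 pumps, exchangers and release channels, 3 of 7 that met the limit were lower by at least 1 in warm-sensitive than insensitive cells, beside 67.6% of all genes: the plasma membrane pumps Atp2b4 (-2.36) and Atp2b1 (-1.71) and the release channel Itpr1 (-1.18). In cold-sensitive cells 3 of 7 were lower than in insensitive cells, beside 35.4% of all genes, namely the reticulum pump Atp2a2 (-2.64), Atp2b4 (-1.40) and Atp2b1 (-1.10), and 1 was higher, beside 13.9%, the exchanger Slc8a1 (1.17). Between warm-sensitive and cold-sensitive cells 1 of 5 was higher, Atp2a2 (1.68), and 2 lower, Slc8a1 (-1.77) and Atp2b2 (-1.42), beside 7.37% and 62.6% of all genes. Of 6 in silent sensitive against silent insensitive cells, Atp2b2 was higher (1.37) and Atp2a2 (-1.70) and Itpr1 (-1.25) lower, beside 10.4% and 38.7% of all genes. Of 6 in silent cells together, Ryr2 (-1.47) and Atp2b1 (-1.21) were lower than in the others, beside 15.3% of all genes.

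The 18 cells of unknown class are given as values only. The summed level of the members ranged from 0 over a median of 297 to 1764 CPM. Cacnb4 was detected in 9 of them, Cacna1e and Cacna2d1 in 8 each and Cacna1d in 4, among them a cell with 703 CPM of Cacna1d and 707 CPM of Cacnb4.

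Some reads cannot be assigned with certainty, since whether counting used strand was not given in the sources used here. Exons of Cacnb4 share 1433 bases with those of the antisense gene A430018G15Rik, those of Cacna1d 589 bases with Chdh, those of Cacna1a 435 bases with Gm16183 and those of Cacna2d2 82 bases with Gm17141 (GENCODE M21). Chdh has 1 count in the table, and the other 3 are no rows of it.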

How the data were processed

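RNA of 96 patched neurons was measured, and groups are the labelled temperature classes. The authors deposited a table of whole read counts and one of normalized signal, in which each cell's counts are multiplied by 1 constant. FastQC, STAR, edgeR and mm10 are named without versions in the submitters' processing notes; for annotation, counting and strand use, none is given in the sources used here. Counts were divided by each cell's total, Rn45s included, and scaled to 1000000 (CPM). All 96 cells had at least 100000 counts and 1000 genes. PCR reads carry no molecular identifiers, so all intervals (Clopper-Pearson, Poisson; 95%) cover counting error only. Differences are of mean log2(CPM + 1), computed for all genes, a scale that understates low genes. A gene met the limit when 25% or more of the cells of either class, and 3 or more, had 10 CPM. Coordinates and exon lengths are from GENCODE M21 (mm10). All 10 members are named; other lists by counts, with up to 3 genes past a difference of 1 per direction. The members and lists were chosen with earlier results of these data known. The measures were run on simulated data in which each gene's values were resampled over the cells of both classes. The class difference in Rn45s was thus not simulated, and no sparsely detected gene was changed, so the run cannot speak for such genes. Tools were R 4.3.3 with edgeR 4.0.16 (TMM) and DESeq2 1.42.0 (size factors only), and Python 3.11.15 with scipy 1.17.1, pandas 2.3.3 and numpy 2.4.6. Alternatives were other pseudocounts, totals, size factors, depths, limits and cells; shares of cells with a kind of subunit were added after seeing the data.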

Additional observations from a re-analysis of the deposited data

Results flagged for a closer look

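In the 2 classes of 5 and 10 cells, 19 sets of levels were screened for a cell far from the others by Dixon's criterion, and 7 had one; chance alone marks about 1 in 20 such groups, and levels that are mostly 0 are marked more readily. Among cold-sensitive cells the highest cell stood apart for Cacna1a (10.6 CPM, cell 3), Cacna1g (9.49 CPM, cell 3) and Cacna1d (0.64 CPM, cell 5, a single count). Among silent sensitive cells it stood apart for Cacna1c (63.5 CPM), Cacna1d (77.9 CPM) and Cacna2d2 (103 CPM), all in cell 3, and for Cacnb3 (0.82 CPM, cell 2, a single count). Cell 3 had 4574 genes with a count, where the median of its class was 3230.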

How the results depend on the processing

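There were 15 summary values: the median difference over all 10 members, below the limit or not, and the 2 counts past a difference of 1, in 5 comparisons. For these, other settings gave 175 values. A median was taken as moved when it shifted by 1 SD between cells or more, and a count when it changed by over 1.5 times: 152 values stayed inside these bounds, 22 moved and 1 reversed from a main value past 1. Staying inside them does not mean the same sign. The median gene below is taken over genes that met the limit, while the median member includes members below it. The median member changed sign in 5 of 11 settings for warm-sensitive against cold-sensitive cells, in 2 for silent sensitive against silent insensitive cells, in 2 for silent against other cells, in 1 for warm-sensitive against insensitive cells and in 0 for cold-sensitive against insensitive cells. Causes were not tested. Warm-sensitive against insensitive: relative to the median gene the median member was 0.23 and 0 members were lower; 1 was lower with a pseudocount of 10 CPM and 1 with DESeq2 size factors, and 1 was higher by summed counts. Cold-sensitive against insensitive: 0 were lower with a pseudocount of 10 CPM, 1 with TMM, DESeq2 factors, the deposited values or relative to the median gene, 5 after thinning and 4 by summed counts; 1 was higher by summed counts or with no limit on low genes. Leaving out 1 cell gave 1 to 4 lower. Warm-sensitive against cold-sensitive: with no limit 3 were lower, relative to the median gene the median was 1.43, and leaving out 1 cell gave 0 to 1 lower. Silent sensitive against silent insensitive: the median was 1.80 by summed counts; 0 were higher with a pseudocount of 10 CPM or within letters of the cell title, 1 without cells above 75% Rn45s; 0 were lower with a pseudocount of 10 CPM and 2 by summed counts. Leaving out 1 cell gave 0 to 2 higher and 0 to 1 lower. Silent against other cells: 1 was higher by summed counts. The letters of the cell title are of unknown meaning. No paired analysis was possible because no label names the animal of a cell. Totals were 465167 to 3660726 counts, and Rn45s made up 53.17% of all counts and 21.8 to 91.6% of those of a cell. A subunit called undetected was below 10 CPM and could still have reads: Cacna1e had a count in 73 cells and was detected in 34. A lack of detection therefore does not show that a subunit was absent.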
